A study of Homo sapiens with 56 samples.

Results

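The inhibitor of apoptosis (IAP) genes around BIRC5 were followed by RNA-seq in 56 libraries made from cell lines of a B-cell cancer, mantle cell lymphoma. The 6 genes BIRC5, XIAP, BIRC2, BIRC3, BIRC6 and DIABLO were taken by their gene symbols, and each was found once among the 21595 named entries of the deposited table. All 6 passed the filter on low values, as did 17203 entries in all. The lines were Z138 (13 libraries), JEKO-1 (15), MINO-VR (13) and MINO-P (15), and what P and VR stand for is not given in the sources used here. The label CON (5), with no agent named, is taken as the control. Single agents were IBR (11), BTZ (6), CLF (6), S63845 (6) and YM155 (4), and pairs were IBR_CLF (8), IBR_YM155 (2), IBR_S63845 (1), BTZ_CLF (4), BTZ_YM155 (2) and BTZ_S63845 (1). The small molecule YM155 was developed as a suppressor of BIRC5 expression, and S63845 inhibits the MCL-1 protein. The design asks how inhibition of BIRC5 or MCL-1, alone or with other drugs, bears on drug resistance. The codes CLF, BTZ and IBR are used as the labels give them, and doses and exposure times are not given in the sources used here. Library names are of an HK or an MCL series. In MINO-P and MINO-VR, the CON, CLF, BTZ and BTZ_CLF libraries are HK and all others are MCL. Their values under the other treatments are thus set against CON of another series, and series and drug cannot be told apart in them. Each culture is a single line, so a line difference describes these cultures, and nothing in the labels says that libraries of one group came from separate cultures: their spread, and the p-values built on it, may be technical.

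IAP proteins share a zinc-binding fold, the BIR domain, and restrain caspases, the proteases that carry out apoptosis. XIAP binds and inhibits active caspases directly, whereas BIRC2 and BIRC3 (cIAP1 and cIAP2) are ubiquitin ligases that act in TNF receptor and NF-kB signalling, and BIRC3 is itself a classical NF-kB target gene. BIRC5 (survivin) is a subunit of the chromosomal passenger complex with AURKB, INCENP and CDCA8 and is transcribed mainly in late cell cycle. BIRC6 is a very large membrane-associated IAP with ubiquitin-conjugating activity. DIABLO (Smac) is released from mitochondria and displaces caspases from IAP proteins.

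Levels are given as CPM (counts per 1e+06 reads) of nuclear genes, that is, with the 15 mitochondrially encoded genes left out and each library rescaled, because those genes held from 1.91% to 80.5% of a library (median 6.69%). In 6 JEKO-1 libraries (BTZ replicates 1 and 2 and both libraries of BTZ_CLF and IBR_CLF) they held more reads than all other genes together. Recovered depth was 5.52 to 21.6 M (1e+06) reads or read pairs per library, so that 3 reads stood for 0.139 to 0.543 CPM, and the member value with the fewest reads rested on 10. JEKO-1 BTZ replicate 3 stood apart: its log2 levels correlated at 0.79 with the mean of the other JEKO-1 libraries, against 0.94 and 0.95 for BTZ replicates 1 and 2. It held 9.92% mitochondrial reads, and the members' differences between BTZ and CON and between JEKO-1 and the other lines tested are given with and without it. One other library, MINO-P BTZ_YM155, was about as like MINO-VR (0.961) as MINO-P (0.961), and the other 55 were most like their own line. Of the B-cell genes, CD79A, CD79B, MS4A1, PAX5, CCND1, SOX11 and PTPRC were above 10 CPM in every library. The 7 markers of other cells summed to 1.40 to 78.4 CPM, mostly COL1A1 in Z138, and the T-cell genes CD3D and CD3E were at 0 in 43 and 41 libraries. In bulk RNA, fewer cells of a kind and less RNA per cell cannot be told apart.

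The genes lie on 5 chromosomes of GRCh38. BIRC5 is at chr17:78214186-78225637, XIAP at chrX:123859712-123913973, BIRC6 at chr2:32357023-32619572, all on the plus strand, and DIABLO at chr12:122207668-122226063 on the minus strand. BIRC3 (chr11:102317484-102339404) and BIRC2 (chr11:102347211-102378671) are neighbours on the plus strand with 7806 bases between them. Per kilobase of exon, the median level over the 56 libraries was 15.0 CPM for BIRC5, 13.4 for XIAP, 11.2 for DIABLO, 10.7 for BIRC6, 9.86 for BIRC2 and 6.84 for BIRC3. That order was not fixed: BIRC5 ranked highest of the 6 in 27 libraries and lowest in 8, while BIRC3 ranked lowest in 27. By line, the median per kilobase of BIRC5 was 40.7 CPM in JEKO-1 and 37.8 in Z138 but 11.1 in MINO-P and 10.4 in MINO-VR, where XIAP led with 15.0 and 20.6.

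**Figure D1:**
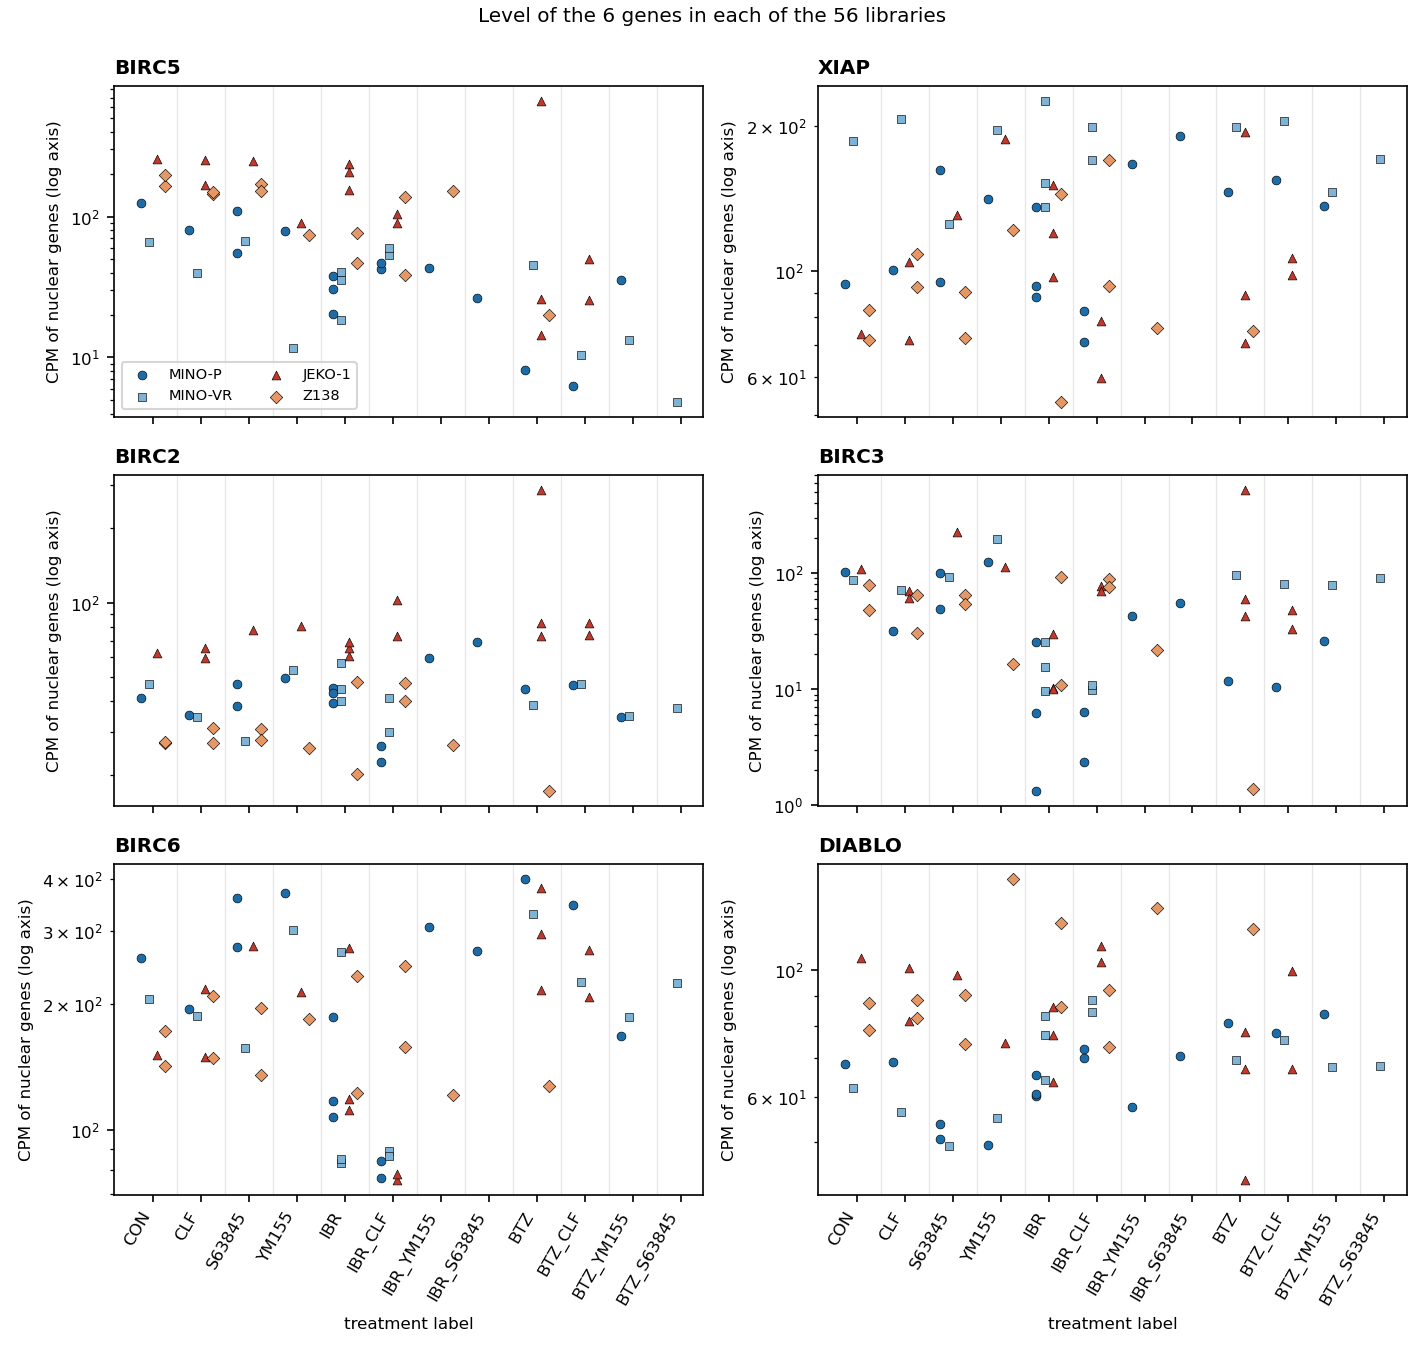
Level of each gene in each library (CPM of nuclear genes, log axis) by treatment label, with colour and symbol for the cell line. BIRC5 and BIRC3 spread over 2 to 3 orders of magnitude, while DIABLO stays between 42.9 and 144.7 CPM.

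BIRC5 was below CON of its line in 49 of 51 treated libraries, and most under BTZ. CON libraries held 124 CPM in MINO-P, 66.3 in MINO-VR, 254.5 in JEKO-1, and 164 and 196 in Z138. Under BTZ alone the values were 8.14 in MINO-P, 45.5 in MINO-VR, 26.1, 14.5 and 661 in JEKO-1, and 19.9 in Z138. Of these, 5 libraries lay below every CON library, and JEKO-1 BTZ replicate 3 lay above all 56. The fitted difference was -2.33 on the log2 scale (SE 0.53, limma adjusted p = 0.00138), and without JEKO-1 BTZ replicate 3 it was -2.97 (adjusted p = 9.45e-07). BIRC5 was the 1 member of 6 called under BTZ, where 18.6% of the 17203 genes tested were called, 838 higher and 2366 lower (288 and 3678 with the deposited CPM, 1313 and 1943 with size factors). With MINO-P and MINO-VR left out, the difference was -2.41 with an adjusted p of 0.0562, and without the 6 libraries rich in mitochondrial reads it was -1.54 (adjusted p = 0.0301). The median of all genes under BTZ was -0.17 with nuclear CPM, -0.42 with the deposited CPM and -0.08 with size factors, and BIRC5 fell under each scaling.

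The partners of BIRC5 fell with it under BTZ. AURKB, the kinase of the passenger complex, fell by 4.26 (SE 0.52, adjusted p = 1.97e-07), CDCA8 (borealin) by 2.41 (SE 0.39) and INCENP, the scaffold, by 1.43 (SE 0.32), all on the log2 scale. All 18 genes of the mitosis list also fell, with a median of -2.58, led by the kinase PLK1 (-3.73) and the topoisomerase TOP2A (-3.41). Leaving out any single BTZ or CON library left 17 or 18 of the 18 called.

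Promoter sequences are shown for the 3 partners, because BTZ lowered them together with BIRC5. Each run is 130 bases of the RefSeq promoter (GRCh38.p14), written 5′ to 3′ on the gene's strand, with capitals for the cell cycle element TTTGAA or TTTAAA (the CHR) and for CCAAT boxes, which read ATTGG on the opposite strand.
INCENP, chr11:62123891-62124020, plus strand: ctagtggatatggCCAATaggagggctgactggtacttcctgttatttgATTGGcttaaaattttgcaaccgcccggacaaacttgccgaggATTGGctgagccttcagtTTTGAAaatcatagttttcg
CDCA8, chr1:37692396-37692525, plus strand: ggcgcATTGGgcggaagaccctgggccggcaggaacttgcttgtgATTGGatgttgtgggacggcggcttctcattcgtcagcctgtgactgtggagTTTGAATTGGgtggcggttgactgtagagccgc
AURKB, chr17:8210296-8210425, minus strand: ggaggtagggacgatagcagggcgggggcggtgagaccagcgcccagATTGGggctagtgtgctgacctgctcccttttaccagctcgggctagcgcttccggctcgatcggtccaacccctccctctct
INCENP and CDCA8 each held 1 CHR match, 10 and 23 bases before the start, and 3 CCAAT boxes, and in CDCA8 the CHR overlaps the last of these. AURKB held 1 CCAAT box, 153 bases before the start, and no CHR match in the window. Of the 21 genes of the passenger complex and mitosis lists, 17 had a promoter in the table, and 12 of these had a CHR and 15 a CCAAT box on either strand. Among all 35116 promoters of 300 bases, 24.0% had a CHR and 34.6% a CCAAT box. No promoter of BIRC5 was used.

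Under IBR the values of BIRC5 were lower in every line, but the difference did not pass the test. IBR libraries held 38.03, 30.6 and 20.5 CPM in MINO-P, 35.5, 40.5 and 18.5 in MINO-VR, 237, 207 and 155 in JEKO-1, and 76.8 and 47.1 in Z138. All 11 lay below the CON mean of their line, and so did the other 11 libraries of IBR with CLF, YM155 or S63845. In both MINO cultures these libraries are of the MCL series and CON of the HK series, so series and drug cannot be told apart in those counts. The difference was -1.22 (SE 0.52, adjusted p = 0.13), and limma called 0 of 6 members under IBR (2 at an unadjusted p under 0.05), where 10.8% of genes were called. BIRC5 passed without the series term (-1.27, adjusted p = 0.0494), with array weights (-1.01, adjusted p = 0.0311) and without the 6 libraries rich in mitochondrial reads (-1.36, adjusted p = 0.047). AURKB (-1.75, adjusted p = 0.0189) and INCENP (-1.06, adjusted p = 0.0234) fell, CDCA8 was at -1.02 (adjusted p = 0.0756), and 7 of the 18 mitosis genes fell, among them MYBL2 (-2.14), a late cell cycle transcription factor, and TOP2A (-1.90). With CLF added to IBR, BIRC5 was 42.2 and 47.0 CPM in MINO-P, 53.2 and 59.5 in MINO-VR, 89.6 and 103.5 in JEKO-1, and 137 and 38.6 in Z138. The fitted difference from IBR alone was 0.17 (SE 0.40). BTZ against IBR was at -1.10 for BIRC5 (SE 0.49, adjusted p = 0.111). Its value ran from -1.88 without JEKO-1 BTZ replicate 3 (adjusted p = 0.000814) to -0.18 without the 6 libraries rich in mitochondrial reads (adjusted p = 0.826). The IBR values of BIRC5 lay nearer CON in JEKO-1 (-0.10, -0.30 and -0.71 against its 1 CON library) than in Z138 (-1.21 and -1.91). The interaction between these lines was -1.19 (SE 0.53, adjusted p = 0.763), and 0 of 6 members (1 at an unadjusted p under 0.05) and 0% of 14373 genes were called in it, with 938 genes at an unadjusted p under 0.05.

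YM155 alone gave BIRC5 values of 79.3 CPM in MINO-P, 11.7 in MINO-VR, 89.3 in JEKO-1 and 73.4 in Z138. Each of the 4 was below CON of its line, by 0.64 to 2.41 on the log2 scale, with CON of another series in both MINO cultures. The fitted difference was -1.42 (SE 0.62, adjusted p = 0.262), and limma called 0 of 6 members (2 at an unadjusted p under 0.05), against 1.15% of genes, 127 higher and 70 lower (94 and 91 with size factors). Over its alternatives the difference ran from -1.84 to -1.04 and the lowest adjusted p was 0.0528. The mitosis list had a median of -0.97 in the same comparison, with 0 of 18 genes called, and AURKB was at -1.92 (adjusted p = 0.0997). Against S63845, the other single agent, BIRC5 was at -1.27 (SE 0.56, adjusted p = 0.448), with 0 of 6 members (1 at an unadjusted p under 0.05) and 0.0116% of genes called.

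BIRC5 values with YM155 and a second drug lay on both sides of those with the second drug alone. With IBR and YM155, BIRC5 was 43.2 CPM in MINO-P and 151 in Z138, above the IBR values of the same line in both. With BTZ and YM155 it was 35.4 in MINO-P, where BTZ alone gave 8.14, and 13.4 in MINO-VR, where BTZ alone gave 45.5. The BTZ libraries of both MINO cultures are of the HK series and the BTZ_YM155 libraries of the MCL series, and series and drug cannot be told apart there. Averaged over the 3 backgrounds CON (that is, YM155 alone), IBR and BTZ, the YM155 term was -0.09 (SE 0.42, adjusted p = 0.94; -0.36 to 0.19 over its alternatives), and 0 of 6 members (0 at an unadjusted p under 0.05) were called, beside 3.14% of genes, 423 higher and 118 lower (253 and 205 with size factors, 356 and 41 with the deposited CPM). The lowest BIRC5 value of all 56 libraries, 4.87 CPM, was that of MINO-VR BTZ_S63845, a group of 1 library.

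BIRC5 moved with the mitosis list across treatments. In all 51 treated libraries the mean of the 18 mitosis genes was below CON of the line, and in 49 of them BIRC5 was within 1 log2 unit of that mean difference. The correlation of the pair over these libraries was 0.88, a description only, since the libraries share their CON values. The exceptions were JEKO-1 BTZ replicate 3, where BIRC5 was 2.41 above the list, and MINO-P IBR_S63845, where it was 1.12 above. Under YM155 alone, the difference of BIRC5 minus that of the list was -0.39 in MINO-P, -0.38 in MINO-VR, -0.53 in JEKO-1 and 0.43 in Z138. Under BTZ alone it ran from -0.76 to 2.41 and under IBR alone from -0.30 to 0.89.

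**Figure D2:**
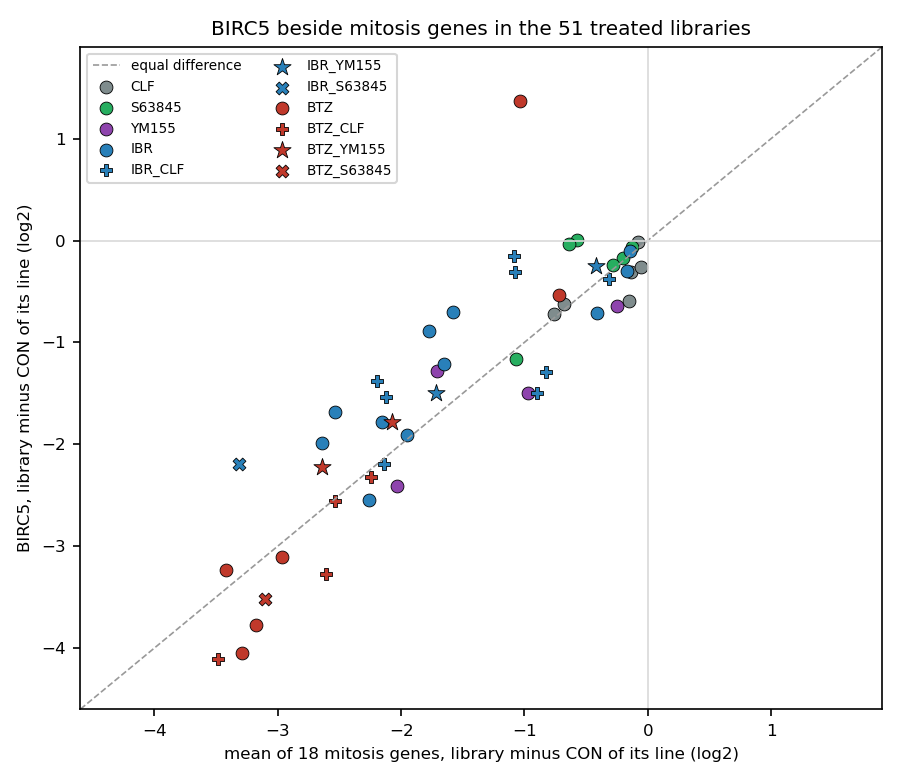
BIRC5 (vertical) and the mean of 18 mitosis genes (horizontal) in each treated library, each as log2 difference from CON of its line, with colour for the drug and symbol for the partner. Of 51 points, 49 lie within 1 log2 unit of the dashed line of equal difference. JEKO-1 BTZ replicate 3 (at the top, BIRC5 1.37 above CON) and MINO-P IBR_S63845 lie further above it.

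BIRC3 had the widest range of the 6 genes as a ratio of highest to lowest, from 1.34 to 520 CPM, and most of its lowest values were under IBR. CON libraries held 102.5 CPM in MINO-P, 87.9 in MINO-VR, 109 in JEKO-1, and 47.8 and 78.3 in Z138. Under IBR the values were 6.23, 1.34 and 25.3 in MINO-P, 9.66, 15.7 and 25.8 in MINO-VR, and 10.3, 10.01 and 29.98 in JEKO-1. Z138 gave 10.8 and 92.0 CPM under IBR, so that 10 of the 11 libraries were below every CON library and Z138 IBR replicate 2 was not. The difference was -2.13 (SE 0.76, adjusted p = 0.0623) and did not pass. It passed without Z138 IBR replicate 2 (-2.59, adjusted p = 0.0195), without MINO-P IBR replicate 3 (-2.26, adjusted p = 0.0418), without the series term (-2.55, adjusted p = 0.00738) and with array weights (-2.48, adjusted p = 0.000443). Over all 22 libraries with IBR alone or combined, 19 were below CON of their line, with CON of another series in both MINO cultures.

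With CLF added to IBR, BIRC3 values lay apart between the lines, a difference that was not tested. The IBR_CLF libraries of each line have names that differ only by a final letter. It was 6.39 and 2.38 CPM in MINO-P and 9.78 and 10.8 in MINO-VR, near the IBR values. In JEKO-1 it was 77.2 and 70.4, above all 3 IBR libraries. In Z138 it was 88.7 and 76.3, between the 10.8 and 92.0 of its IBR libraries. Both JEKO-1 libraries were among those rich in mitochondrial reads, and the part of this in the values was not tested. IBR_CLF against IBR was at 0.71 (SE 0.59, adjusted p = 0.756), with 0 of 6 members called (0 at an unadjusted p under 0.05), 0% of genes called and 1679 genes at an unadjusted p under 0.05.

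Under BTZ, BIRC3 was 11.8 CPM in MINO-P and 1.38 in Z138 but 96.5 in MINO-VR, and in JEKO-1 it was 59.6, 42.9 and, in replicate 3, 520. The difference of -1.37 (SE 0.78, adjusted p = 0.231) did not pass. It was -1.99 without JEKO-1 BTZ replicate 3 (adjusted p = 0.0413) and -0.51 without Z138 BTZ replicate 1 (adjusted p = 0.692), and it passed also with array weights (adjusted p = 0.0233). YM155 values were 124 in MINO-P, 199 in MINO-VR, 112.5 in JEKO-1 and 16.3 in Z138, so 3 lines lay above CON and Z138 below. Under S63845 they were 99.5 and 48.9 in MINO-P, 93.1 in MINO-VR, 226 in JEKO-1, and 65.5 and 53.9 in Z138, with a difference of 0.59 (SE 0.83). The YM155 term over the 3 backgrounds was 1.13 for BIRC3 (SE 0.62, adjusted p = 0.338; 1.39 without JEKO-1 BTZ replicate 3). In that comparison 4 listed genes rose: the inhibitor NFKBIA by 1.71 (SE 0.25, adjusted p = 6.2e-05), NFKBIE by 0.97, the adaptor TRAF1 by 2.31 (SE 0.43, adjusted p = 0.00157) and the deubiquitinase TNFAIP3 by 1.14. They were 2 of 11 NF-kB subunits and inhibitors and 2 of 14 partners of the cIAP proteins, and 0 of either list fell. Of all genes 3.14% were called there, 423 higher and 118 lower.

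The promoter of BIRC3 is shown because its highest and lowest levels differed by the largest ratio of the 6 genes. The run is 130 bases of the RefSeq entry (GRCh38.p14), with capitals for GGNNNTCCC, a shortened form of the NF-kB binding site.
BIRC3, chr11:102317264-102317393, plus strand: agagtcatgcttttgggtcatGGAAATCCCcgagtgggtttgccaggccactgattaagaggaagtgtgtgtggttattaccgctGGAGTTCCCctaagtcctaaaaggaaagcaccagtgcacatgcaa
The motif occurred 2 times, 199 and 135 bases before the start, both on the gene's strand. On both strands, 22.9% of all 35116 promoters held it at least once and 4.42% at least 2 times. It occurred 1 time in each of the 2 promoters of BIRC2, in 1 of 3 of XIAP, in 1 of 2 of BIRC6 and in 1 of 4 of DIABLO.

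Of the 25 NF-kB and cIAP partner genes, 3 were called under IBR and 5 under BTZ, shares near the 10.8% and 18.6% of all genes. Under IBR, NFKB1 (-1.16, adjusted p = 0.0215) and NFKBIE (-1.05, adjusted p = 0.0375) fell among 11 subunits and inhibitors, and TNFAIP3 (-1.44, adjusted p = 0.0129) fell among 14 cIAP partners. Under BTZ, NFKBIE (-1.76), RELB (-1.37) and NFKBIA (-1.13) fell and the kinase CHUK rose by 0.50, and of the cIAP partners TNFAIP3 fell by 1.47. CYCS (cytochrome c) fell under both, by 0.66 under BTZ and 0.81 under IBR. HTRA2, a mitochondrial protease that like DIABLO binds IAP proteins, fell under BTZ by 1.22 (SE 0.31, adjusted p = 0.00373) and was the only gene called among the 5 tested other IAP genes and antagonists. B-cell genes fell too, with 5 of 8 called lower under BTZ and 4 of 8 under IBR, PAX5 among them (-2.39 and -2.77), and their part in the member values was not tested.

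BIRC2, the constitutive partner of TRAF2, was called under no treatment. It lay between 17.3 and 102 CPM in all libraries but JEKO-1 BTZ replicate 3, which held 285. Under BTZ the values were 44.6 in MINO-P, 38.3 in MINO-VR, 82.7, 73.5 and 285 in JEKO-1, and 17.3 in Z138, against 41.1, 46.8, 62.6, and 27.03 and 27.2 in CON. The differences were 0.26 under BTZ (SE 0.28, adjusted p = 0.569), 0.12 under IBR (SE 0.27), 0.23 under YM155 (SE 0.32) and 0.02 under S63845 (SE 0.29). The BTZ value was -0.11 with the deposited CPM and -0.05 without JEKO-1 BTZ replicate 3.

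XIAP was above CON of its line in 34 of 51 treated libraries, and no treatment difference passed the test. Its values in CON were 93.8 CPM in MINO-P, 186 in MINO-VR, 73.8 in JEKO-1, and 82.7 and 71.8 in Z138. Under YM155 they were 141, 196, 188 and 121, above CON in each of the 4 lines. The YM155 difference was 0.83 (SE 0.30, adjusted p = 0.17), and it passed with array weights (0.84, adjusted p = 0.0308) but under none of the other 18 alternatives. Under BTZ it was 0.33 (SE 0.26; -0.05 with the deposited CPM and 0.15 without JEKO-1 BTZ replicate 3) and under IBR 0.40 (SE 0.25).

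BIRC6 was above CON of the line in 5 of 6 BTZ libraries and below it in 8 of 11 IBR libraries. BTZ values were 400.4 CPM in MINO-P, 331 in MINO-VR, 295, 216 and 381 in JEKO-1, and 127 in Z138. CON libraries held 259 in MINO-P, 206 in MINO-VR, 151 in JEKO-1, and 142 and 172 in Z138. IBR values were 107, 117 and 187 in MINO-P, 83.3, 85.2 and 267 in MINO-VR, 119, 112 and 274 in JEKO-1, and 122 and 234 in Z138. Outside Z138, the high value was always that of replicate 3. Its name has another number, while the names of replicates 1 and 2 differ only by a final letter. XIAP and BIRC3 were also highest, and BIRC5 lowest, in replicate 3 among the IBR libraries of these lines. The Z138 pair, with names alike but for a final letter, was split as well. What sets replicate 3 apart was not tested. IBR_CLF gave 75.8 to 89.0 CPM in the other lines, against 158 and 248 in Z138. YM155 gave 371 in MINO-P, 302 in MINO-VR, 214.5 in JEKO-1 and 184 in Z138, above CON in each (0.67, SE 0.37, adjusted p = 0.417). BTZ against CON was at 0.59 (SE 0.32, adjusted p = 0.203; 0.48 without JEKO-1 BTZ replicate 3) and passed with size factors only (0.74, adjusted p = 0.0499). BTZ against IBR was at 0.78 (SE 0.29, adjusted p = 0.055; 0.65 without JEKO-1 BTZ replicate 3), and limma called 0 of 6 members there (2 at an unadjusted p under 0.05), against 18.4% of genes, 842 higher and 2325 lower (206 and 4050 with the deposited CPM, 1267 and 1884 with size factors). With size factors that BIRC6 difference passed (0.90, adjusted p = 0.00957), and with the deposited CPM it was 0.36 (adjusted p = 0.519).

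DIABLO varied least, from 42.9 to 144.7 CPM. Its treatment differences lay between -0.09 under S63845 and 0.13 under IBR in the 5 single-agent comparisons with CON, and the BTZ value of -0.08 was -0.45 with the deposited CPM, 0.07 with size factors and 0.07 without JEKO-1 BTZ replicate 3. The highest values were in Z138, at 145 under YM155, 129 under IBR_YM155, 121 in 1 IBR library and 118 under BTZ, against 87.6 and 78.7 in its CON libraries. JEKO-1 BTZ replicate 3, where BIRC5, BIRC2 and BIRC3 were highest, held the lowest DIABLO value.

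CLF and S63845 left all 6 genes uncalled. BIRC5 under CLF was 80.3 CPM in MINO-P, 39.8 in MINO-VR, 253 and 169 in JEKO-1, and 144 and 150 in Z138, below CON of the line in 6 of 6. The CLF difference was -0.46 (SE 0.53, adjusted p = 1), and limma called 0 of 6 members (0 at an unadjusted p under 0.05) and 0% of genes, with 62 at an unadjusted p under 0.05. Under S63845, BIRC5 was 55.0 and 110 in MINO-P, 66.7 in MINO-VR, 249 in JEKO-1, and 172 and 151 in Z138. That difference was -0.15 (SE 0.57, adjusted p = 1), again with 0 of 6 members (0 at an unadjusted p under 0.05) and 0% of genes called, and 428 genes at an unadjusted p under 0.05. With CLF added to BTZ, BIRC5 was 6.24 in MINO-P, 10.4 in MINO-VR, and 25.5 and 50.3 in JEKO-1. BTZ_CLF against BTZ was at -0.85 (SE 0.56, adjusted p = 0.705; -0.16 without JEKO-1 BTZ replicate 3), with 0 of 6 members (0 at an unadjusted p under 0.05) and 0.0698% of genes called.

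**Figure D3:**
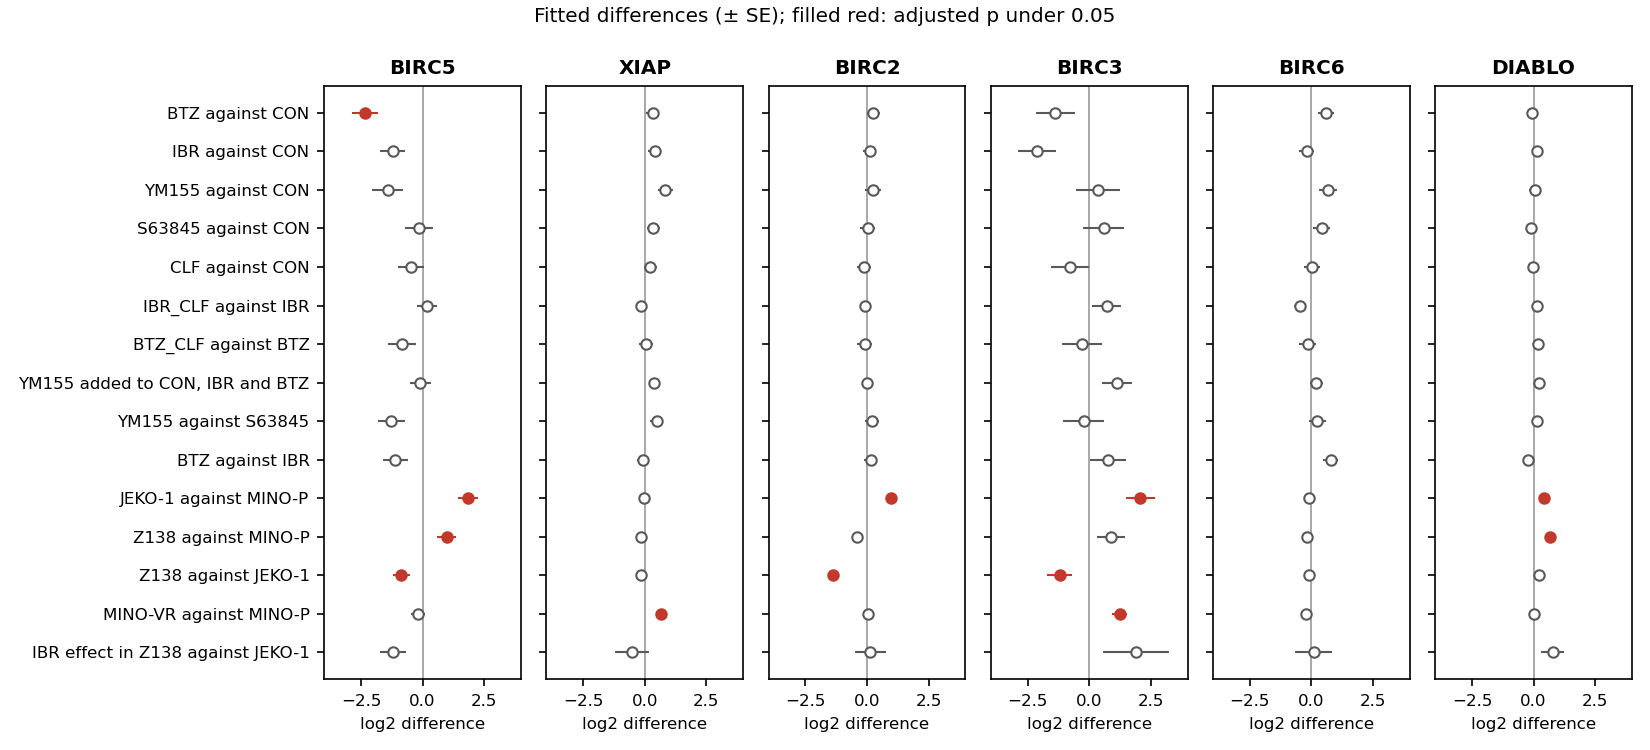
Fitted log2 difference (± SE) of each gene in the 15 comparisons, filled red where the limma adjusted p is under 0.05. Treatment rows hold 1 filled point, BIRC5 under BTZ, while the 4 line comparisons hold 11.

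Between lines, 4 of 6 members were higher in JEKO-1 than in MINO-P, where 39.1% of 17203 genes were called, 3915 higher and 2810 lower (1987 and 4169 with the deposited CPM). BIRC5 was higher by 1.84 (SE 0.39, adjusted p = 0.000179), BIRC3 by 2.08 (SE 0.57, adjusted p = 0.00315), BIRC2 by 0.99 (SE 0.20, adjusted p = 0.000103) and DIABLO by 0.44 (SE 0.15, adjusted p = 0.0149), all on the log2 scale. With the deposited CPM, where JEKO-1 loses most to mitochondrial reads, BIRC2 was at 0.60 (adjusted p = 0.0748) and DIABLO at 0.04 (adjusted p = 0.901). DIABLO was also not called with size factors (0.33, adjusted p = 0.101) or without the 6 libraries rich in mitochondrial reads (0.39, adjusted p = 0.0624). Of the mitosis list, 13 of 18 genes were also higher in JEKO-1, with a median of 1.36. Without JEKO-1 BTZ replicate 3 the 4 differences were 1.73 for BIRC5, 1.98 for BIRC3, 0.94 for BIRC2 and 0.46 for DIABLO, all still called. The medians in CPM were 155 in JEKO-1 and 42.2 in MINO-P for BIRC5, and 61.4 and 26.2 for BIRC3. The BIRC3 difference was not seen in every treatment. Under CON, with 1 library each, BIRC3 was 109 CPM in JEKO-1 and 102.5 in MINO-P, and under YM155 it was 112.5 and 124. Group medians of BIRC3 under IBR_CLF were 73.8 and 4.38, and under BTZ 59.6 and 11.8. Whether this line difference varies with treatment was not tested.

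Z138 differed from MINO-P in 2 of 6 members, where 39.3% of genes were called. BIRC5 was higher by 0.98 (SE 0.38, adjusted p = 0.0361) and DIABLO by 0.65 (SE 0.14, adjusted p = 0.000206). DIABLO stayed past the test in all 37 alternatives, and BIRC5 lost its call in 11, with adjusted p up to 0.075. Of the mitosis list 11 of 18 genes were higher. Against JEKO-1, 3 of 6 members were lower in Z138, BIRC2 by 1.38 (-1.38, SE 0.18, adjusted p = 7.67e-09), BIRC3 (-1.20, SE 0.51, adjusted p = 0.0407) and BIRC5 (-0.86, SE 0.35, adjusted p = 0.0326), where 54.5% of genes were called, 4425 higher and 4952 lower (6672 and 2819 with the deposited CPM). For BIRC2, JEKO-1 held 59.8 to 285 CPM (median 73.5) and Z138 17.3 to 47.8 (median 27.2), with no overlap. How many other genes had such separate ranges was not counted. The call of BIRC2 held in all 37 alternatives. The calls of BIRC3 and BIRC5 were lost in 18 and 7 of 37. Without JEKO-1 BTZ replicate 3, BIRC2 was at -1.29, BIRC5 at -0.66 (adjusted p = 0.0298) and BIRC3 at -1.01 (adjusted p = 0.0562). Without Z138 BTZ replicate 1, BIRC3 was at -0.70 (adjusted p = 0.226) and BIRC5 at -0.75 (adjusted p = 0.078), and with the deposited CPM BIRC5 was at -0.35 (adjusted p = 0.471). DIABLO was at 0.22 (adjusted p = 0.156) and was called only with the deposited CPM (0.73, adjusted p = 0.00171).

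Lists of genes around the members are given for the same line comparisons, where 39.1% of all genes differed between JEKO-1 and MINO-P, 39.3% between Z138 and MINO-P and 54.5% between Z138 and JEKO-1. The lists' shares are not read as particular to them. In JEKO-1 against MINO-P, 3 of 14 cIAP partners were higher, led by TRAF1 (1.21) and TRAF2 (1.00), and 4 lower, led by RIPK1 (-0.87). NF-kB subunits and inhibitors split 3 higher, led by NFKB2 (1.40), and 2 lower, led by IKBKB (-1.11). Of 11 caspase genes, 2 were higher and 2 lower. Of 5 other IAP genes and antagonists, HTRA2 (0.59) and SEPTIN4 (0.42) were higher and BIRC7 was lower (-1.91). SEPTIN4 was at 0 in 37 of the 56 libraries and at most 3.71 CPM. BIRC7 was at 0 in 11, with medians of 1.46 CPM in JEKO-1 and 6.96 in MINO-P. In Z138 against MINO-P, TRAF1 (-1.94) and TRAF2 (-1.56) were lower and TNFAIP3 (1.48) was higher, NFKB2 (2.01) and NFKBIA (0.79) were higher and 3 other NF-kB genes lower, led by NFKBIE (-1.38) and NFKBIB (-0.99), and 4 of 11 caspase genes were lower, led by CASP10 (-1.07) and CASP8 (-1.02). In Z138 against JEKO-1, 6 cIAP partners were higher and 4 lower, led by TRAF1 (-3.14), and 5 caspase genes were lower and 1 higher. Of the mitosis list, 2 genes were higher and 5 lower there.

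MINO-VR and MINO-P were compared over the 25 libraries of the 9 treatments both had. XIAP was higher in MINO-VR by 0.65 (SE 0.13, adjusted p = 0.000922) and BIRC3 by 1.24 (SE 0.32, adjusted p = 0.0063), 2 of 6 members, where 23.5% of 14807 genes were called. XIAP ranged from 125 to 225 CPM in the 13 MINO-VR libraries (median 186) and from 71.1 to 191 in the 15 of MINO-P (median 136), so the ranges overlapped. Within treatments it was higher in MINO-VR in 4 of 4 of the HK library series (by 0.41 to 1.03) and in 5 of 5 of the MCL series (by 0.01 to 1.26). BIRC3 was higher in 3 of 4 and 5 of 5, from -0.22 to 2.93 in HK and from 0.41 to 1.57 in MCL, and it was lower only in CON. Both calls held in all 30 alternatives, also without MINO-P BTZ_YM155 (0.70 and 1.21). BIRC6 was at -0.23 (adjusted p = 0.335) and was called in 1 of 30, without MINO-VR IBR replicate 3. BIRC5 was at -0.19 (SE 0.28, adjusted p = 0.673).

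Other genes tied to these members also differed between the 2 MINO cultures, where 23.5% of all genes were called, 2102 higher and 1379 lower. XAF1, which encodes an XIAP-binding protein, was higher in MINO-VR by 2.60 (SE 0.43, adjusted p = 0.000148), with medians of 115 and 14.5 CPM. Of the 14 cIAP partners 4 were higher and 0 lower, a share near that of all genes. They were led by TRAF1 (1.48, limma adjusted p = 0.000437) and TRAF2 (0.81, adjusted p = 6e-05), adaptors that recruit BIRC2 and BIRC3 to receptors. Of the 11 NF-kB subunits and inhibitors 6 were higher, led by IKBKG (0.75) and NFKBIA (0.53), and 3 lower, led by NFKBIB (-0.42) and CHUK (-0.39). FADD, the adaptor that recruits caspases to death receptors, was higher by 0.52.

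Some line differences were shared with chromosomal neighbours. Within 5 Mb of XIAP, all 22 other genes with a mean of at least 10 CPM were above 0 in MINO-VR against MINO-P, 15 of them called, with a median of 0.48. C1GALT1C1 (0.88), LONRF3 (0.75) and LAMP2 (0.67) lay above XIAP, and STAG2, the only neighbour beyond its end, was at 0.25. The 293 genes of the X chromosome beyond that window had a median of 0.17 with 92 called higher and 11 lower, and the other chromosomes had a median of 0.04. For BIRC2 in JEKO-1 against MINO-P, all 9 neighbours, BIRC3 among them, were above 0 and 8 were called, with a median of 0.88. The 512 genes of chromosome 11 beyond the window had a median of 0.22, and the other chromosomes 0.03. In Z138 against JEKO-1 all 9 neighbours were called lower, with a median of -1.87, below the -1.38 of BIRC2 itself. In Z138 against MINO-P 7 of the 9 were called lower (median -0.99), while BIRC3 was at 0.88 (SE 0.56, adjusted p = 0.219). In Z138 against MINO-P, of 69 neighbours of DIABLO 37 were called higher and 5 lower (median 0.58, DIABLO 0.65), and of 115 neighbours of BIRC5 52 were higher and 9 lower (median 0.60, BIRC5 0.98). Of all genes, 39.3% were called there. BIRC5 and its neighbours parted in the other line comparisons. In JEKO-1 against MINO-P, 24 neighbours were higher and 20 lower (median 0.05), while BIRC5 was at 1.84. In Z138 against JEKO-1, 52 were higher and 14 lower (median 0.44), while BIRC5 was at -0.86. In Z138 against MINO-P, 12 of 22 neighbours of XIAP were called lower and 0 higher (median -0.55), while XIAP was at -0.16. For BIRC6 in Z138 against JEKO-1, 22 of 36 neighbours were lower and 0 higher (median -0.50), while BIRC6 was at -0.08. In MINO-VR against MINO-P, 16 of its 35 neighbours were lower and 1 higher (median -0.28, BIRC6 -0.23). DNA copy number was not measured.

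**Figure D4:**
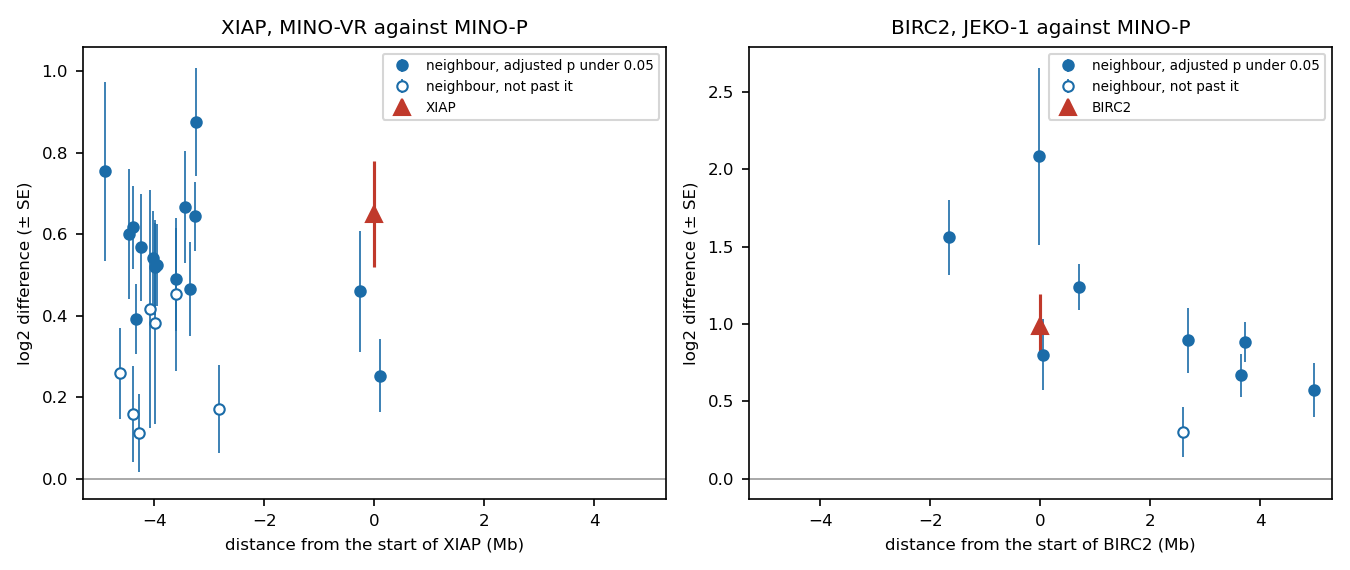
Log2 difference (± SE) of genes within 5 Mb of XIAP (left, MINO-VR against MINO-P) and BIRC2 (right, JEKO-1 against MINO-P), by distance from the start of the member. All 22 and all 9 neighbours lie above 0, and filled circles mark those past the test.

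The genes most like each member were sought by Pearson correlation over the 37 means of line and treatment, with the mean of each line subtracted. BIRC5 was closest to TOP2A (0.95), CENPU (0.94), FOXM1 (0.93), NDC80 (0.92) and TROAP (0.92), and leaving out the JEKO-1 BTZ mean left them between 0.93 and 0.95. BIRC6 was closest to KPNA6 (0.93), RLIM (0.91) and TRIP12 (0.90). The nearest for XIAP was PPFIA1 (0.85), followed by ARFGEF1 (0.80) and PPP4R3B (0.80), for BIRC2 ZMYND11 (0.85), TOGARAM1 (0.82) and BRWD1 (0.81), for BIRC3 ENTPD1, TNFAIP8 and MBNL1 (each 0.85), and for DIABLO MMADHC (0.81), UBXN1 (0.80) and LENG1 (0.79). Among the members, XIAP, BIRC2 and BIRC6 ran together (0.51 to 0.60), BIRC3 followed BIRC6 (0.57) and BIRC2 (0.49), and DIABLO ran against BIRC3 (-0.46). BIRC5 correlated from -0.23 with XIAP to 0.33 with BIRC3. These values describe means of 1 to 3 libraries that share treatments and scaling.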

How the data were processed

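The authors deposited 1 table of log2(CPM + 1) values, as the values show: each library sums to 1e+06 CPM. Reads were processed with Partek against hg38, per the submitters' processing notes. The aligner, the counter and the annotation are not given in the sources used here. Per the labels' protocols, RNA was prepared with RNeasy kits and libraries were poly-A selected. The log2 was undone, the 15 mitochondrially encoded genes and 1 unnamed entry (at most 0.000773% of a library) were left out, and each library was rescaled to 1e+06, because the mitochondrial share moves all other CPM values. Steps between low values gave the depth, but only 74.5% to 88.0% of them were whole reads (within 0.02 reads), so no count test was run.

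Differences come from limma (3.58.1, in R 4.3.3), whose variance prior followed mean log2(CPM + 1), a scale that understates the change of low genes, for genes with at least 1 CPM in 2 libraries. One model over 56 libraries held treatment, cell line and library-name series (HK, 8 libraries of MINO-P and MINO-VR; MCL, 48), since 22 of the 37 groups of line and treatment have 1 library. The HK libraries include both MINO CON libraries. MINO-VR against MINO-P used treatment as a term, and the interaction used CON and IBR of JEKO-1 and Z138. Calls are at a Benjamini-Hochberg adjusted p under 0.05 over all genes tested. The script was tested on simulated data. Gene positions are those of the table, and 99.6% of its identifiers were found in GENCODE 29. Exon lengths are from GENCODE 29 and promoters from RefSeq.

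The members and gene lists were chosen with earlier results of these data known. All members were tested in every comparison. Of each list the text names up to 2 called genes per direction, with AURKB, INCENP and CDCA8 always given for BTZ and IBR. Genes most like a member are the 5 (BIRC5) or 3 with the highest correlation. Alternatives changed the scaling, the series term, the weights, the filter, the pseudocount (0.5), the lines, the pairs of library names and each library in turn. A few genes of the lists are not reported here. Replicate numbers follow the order of the series and are only names.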

Additional observations from a re-analysis of the deposited data

Results flagged for a closer look

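Results are listed here because all libraries of 1 line lay above CON of that line and all libraries of another line lay below theirs, under the same treatment, with at least 2 libraries on each side. Apart from 1 pair given at the end, these differences between lines were not tested, each rests on 1 or 2 CON libraries a line, and the CON libraries of MINO-P and MINO-VR belong to another library series than their IBR and IBR_CLF libraries. Values are the difference between the 2 mean log2 changes.

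Under IBR_CLF, BIRC3 was above CON in Z138 and below it elsewhere, with gaps of 4.79 to MINO-P, 3.40 to MINO-VR and 0.986 to JEKO-1. BIRC6 showed the same directions, with gaps of 2.02 to MINO-P, 1.56 to MINO-VR and 1.30 to JEKO-1. BIRC2 was above CON in Z138 and in JEKO-1 and below it in both MINO cultures. Its gaps were 1.38 and 1.06 from Z138, and 1.19 and 0.868 from JEKO-1, to MINO-P and MINO-VR in turn. The JEKO-1 IBR_CLF libraries held 60.7% and 59.1% mitochondrial reads. In each line the IBR_CLF libraries have names that differ only by a final letter. XIAP was above CON in Z138 and below it in MINO-P, with a gap of 0.99. Under IBR alone, DIABLO was above CON in MINO-VR and Z138 and below it in JEKO-1 and MINO-P, with gaps of 0.738 and 0.393 from MINO-VR and 0.779 and 0.434 from Z138. For the IBR effect in Z138 against JEKO-1 an interaction was fitted, and DIABLO was at 0.78 (limma adjusted p = 0.852).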

How the results depend on the processing

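In all, 15 comparisons of the 6 genes were repeated under the alternatives, and no called direction turned. The number of members called under BTZ moved from 1 to 2 with size factors (BIRC6 added) and with array weights (BIRC3 added), to 0 with JEKO-1 and Z138 only, and to 1 to 2 when single libraries were left out. Under IBR it moved from 0 to 2 without the series term and with array weights, to 1 without the 6 JEKO-1 libraries rich in mitochondrial reads (an alternative chosen after seeing the data), and to 0 to 1 without single libraries. YM155 against CON gave 1 with array weights. BTZ against IBR moved from 0 to 1 with size factors or without the series term, to 2 with array weights, and to 0 to 1 without single libraries. JEKO-1 against MINO-P fell from 4 to 2 with the deposited CPM. Z138 against MINO-P fell from 2 to 1 with size factors or with library pairs averaged (those of Z138 were left as they are), and gave 1 to 2 without single libraries. Z138 against JEKO-1 gave 1 to 3 without single libraries, 1 being the count without Z138 BTZ replicate 1. The cause of these moves was not tested. With the library-name suffix as a replicate block, whose meaning the labels do not give, 1 member call was lost, BIRC3 in Z138 against JEKO-1 (-1.13, adjusted p = 0.0635).

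Among all genes, the 3204 called under BTZ were 1214 with JEKO-1 and Z138 only and 5235 with array weights. Under IBR 1851 genes were called, against 191 with JEKO-1 and Z138 only, 1147 with the deposited CPM, 3079 without the series term and 5055 with array weights, and the 7 mitosis genes called lower became 0, 4, 15 and 12. Leaving out single libraries gave 1081 to 1985 genes and 3 to 10 mitosis genes. YM155 against CON had 197 calls, 9 to 232 without single libraries, 45 with the deposited CPM, 88 with library pairs averaged, 0 with JEKO-1 and Z138 only and 1141 with array weights. YM155 over 3 backgrounds had 541 calls, 92 to 868 without single libraries, 172 with array weights, 335 without the series term, 318 with pairs averaged and 902 without the 6 JEKO-1 libraries. BTZ against IBR had 3167, and 1237 with JEKO-1 and Z138 only and 1985 with pairs averaged. Where 0 genes were called, IBR_CLF against IBR gave 596 with array weights and the interaction 414 with no filter. BTZ_CLF against BTZ (12 calls) gave 0 to 53 and YM155 against S63845 (2 calls) gave 0 to 60. With 22 of 37 groups at 1 library, the spread within a group is borrowed from the others.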
